A study of Mus musculus with 3 samples.

Results

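The Hox genes were examined in MC3T3-E1, an established line of mouse preosteoblasts, the precursors of bone-forming osteoblasts, taken from the skull vault (calvaria). Members were all probe sets whose single gene symbol in the array annotation was Hoxa, Hoxb, Hoxc or Hoxd followed by a number only. The rule found 48 probe sets of 33 genes, out of 45101 probe sets and 18193 genes with a single symbol. The RefSeq gene table holds 39 such Hox genes. Those without a probe set of their own symbol alone are not among the members.

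The cells were grown for 3 days at 37 °C in 1 of 3 media, and total RNA was read on Affymetrix whole-genome mouse expression arrays. The normal medium consisted of MEM α plus serum (FBS, 10%). Osteogenic medium held in addition beta-glycerophosphate at 10 mM and the 2-phosphate of ascorbic acid at 150 µM, and the last group received 0.6% dimethyl sulfoxide (DMSO), a solvent, on top of that. All groups share the line, its C57BL/6 strain, its infinite life span and its fibroblast-like form, and the labels give the age of the source only as "new bone". There was 1 array per medium, so no test was possible and how far cultures in one medium vary was not measured.

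Hox genes encode transcription factors with a homeodomain, a DNA-binding fold, and lie in clusters in which a gene's place along the chromosome follows where along the body axis it is used. Genes of low number are used towards the hindbrain and genes of high number towards the tail and the ends of the limbs. The front of the head is formed largely without them, from neural crest and mesoderm that lie ahead of the Hox domain, while skeletal cells of trunk and limb are known to keep a Hox pattern of their place of origin. The Hox clusters of a line from the skull were therefore examined with position in mind. No trunk or limb cells were measured beside it, so the values alone do not assign a position.

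Most Hox genes gave low values in these cells. A gene was counted as above the floor where the value of its brightest probe set exceeded the median of all non-control probe sets pooled over the arrays, which was 3.54 on the log2 scale. Of the 33 Hox genes, 9 were above the floor on all 3 arrays and 24 were below it on all 3, against 61.6% of all genes above the floor on all 3 arrays. No Hox gene crossed the floor between media. Few genes of any kind did, since 61.6% of all genes were above it on all 3 arrays and 63% on at least 1. The highest Hox value on any array was 5.03, for Hoxa10, and 9072 of the 18193 genes (49.9%) had a mean above the highest Hox mean. Probe sets differ in how strongly they bind, so values of different genes do not order their RNA levels. Since bulk RNA was measured, expression in a few cells and a low level in every cell cannot be told apart.

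**Figure D1:**
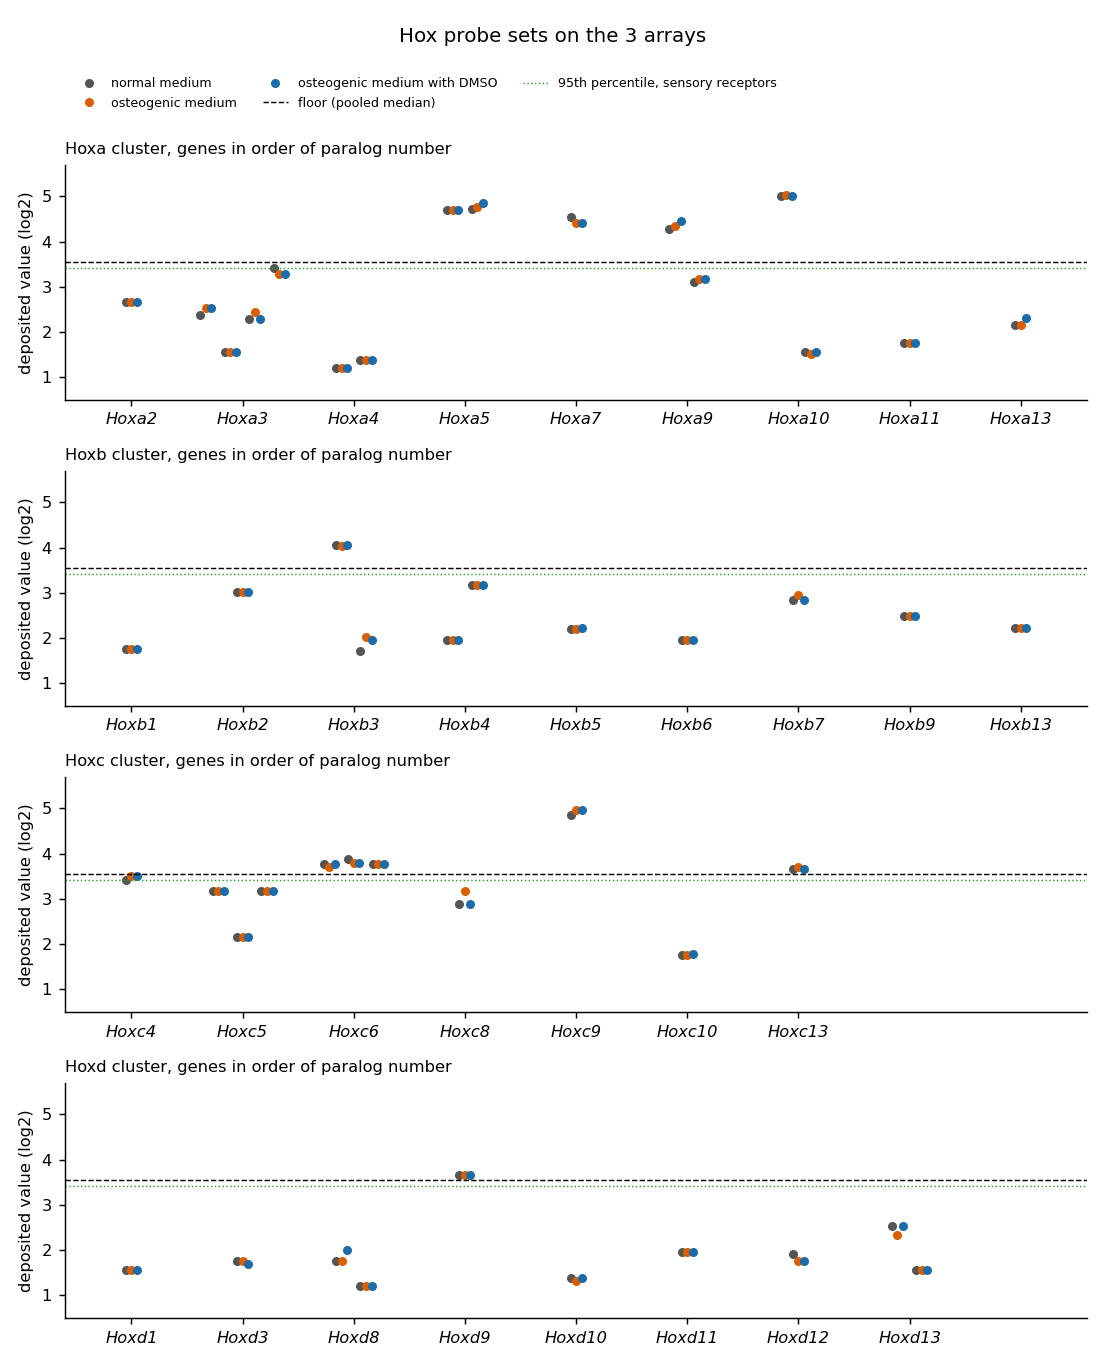
Deposited log2 values (vertical axis) of the 48 Hox probe sets, by gene in order of paralog number within each cluster. Each point is 1 array in the colour of its medium, points of different probe sets of a gene stand side by side, and the lines mark the floor of 3.54 and the 95th percentile of sensory receptor probe sets, 3.41. No point exceeds 5.03, and the points of a probe set lie within 0.30 of each other across the 3 media.

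The promoters of members of the Hoxa cluster are printed because in this cluster the measured genes from Hoxa5 to Hoxa10 were all above the floor, with Hoxa11 and Hoxa13 below it. Each is the 250 bases before the gene's start, 5′ to 3′ on the gene's own strand, from RefSeq on GRCm38.p6. Capitals mark CG pairs. Promoters rich in CG pairs are known as places where Polycomb complexes hold developmental genes silent.
Hoxa5, chr6:52204588-52204837, minus strand: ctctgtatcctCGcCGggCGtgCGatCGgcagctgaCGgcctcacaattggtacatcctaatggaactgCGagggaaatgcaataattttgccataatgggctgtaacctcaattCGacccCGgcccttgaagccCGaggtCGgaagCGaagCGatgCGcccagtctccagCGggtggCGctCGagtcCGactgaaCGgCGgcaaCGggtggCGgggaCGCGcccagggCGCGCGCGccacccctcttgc
Hoxa9, chr6:52227371-52227620, minus strand: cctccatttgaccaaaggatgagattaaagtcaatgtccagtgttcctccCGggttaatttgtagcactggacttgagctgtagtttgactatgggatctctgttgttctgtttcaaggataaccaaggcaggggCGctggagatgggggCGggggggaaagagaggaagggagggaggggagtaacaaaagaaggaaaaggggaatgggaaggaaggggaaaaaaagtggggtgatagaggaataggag
Hoxa11, chr6:52245811-52246060, minus strand: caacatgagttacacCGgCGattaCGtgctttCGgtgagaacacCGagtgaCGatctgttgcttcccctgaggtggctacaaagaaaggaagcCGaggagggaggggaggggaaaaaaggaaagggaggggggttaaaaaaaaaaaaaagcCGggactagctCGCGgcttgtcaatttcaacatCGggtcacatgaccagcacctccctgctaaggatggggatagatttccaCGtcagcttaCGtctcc
Hoxa13, chr6:52260881-52261130, minus strand: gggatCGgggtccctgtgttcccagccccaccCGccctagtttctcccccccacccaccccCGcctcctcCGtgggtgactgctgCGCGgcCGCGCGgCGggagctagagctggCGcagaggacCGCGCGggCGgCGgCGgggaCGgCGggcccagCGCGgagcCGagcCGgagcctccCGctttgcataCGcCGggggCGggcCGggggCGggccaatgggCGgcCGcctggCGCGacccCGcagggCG
These windows held 28 CG pairs at Hoxa5, 3 at Hoxa9, 13 at Hoxa11 and 35 at Hoxa13. The gene with the fewest and a gene with many were both above the floor, and the one with the most was below it.

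The promoter table had entries for 19 of the 33 Hox genes, with 21 promoters. Their median was 13 CG pairs in 250 bases (range 2 to 35), against a median of 6 over all 32851 promoters. It was 10 over the 6 promoters of genes above the floor and 13 over the 15 promoters of genes below it. The letters TAAT, the core that homeodomains are known to bind, were found on either strand in 16 of the 21 Hox promoters (76.2%) and in 54.9% of all promoters. The letters AGGTCA, the half-site of nuclear receptors that include the retinoic acid receptors, were found on either strand in 5 of 21 (23.8%) and in 14% of all promoters. The 6 promoters of genes above the floor, from 5 genes, held 0 of those 5, which is too few promoters to set against the 14%. TAAT was found in 83.3% of those 6 promoters and in 73.3% of the 15 promoters of genes below the floor. The motifs can share an end letter at most, and a match describes letters, not a site in use.

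Anterior genes, paralog groups 1 to 4, specify hindbrain and neck levels. Of the 10 measured, Hoxb3 was above the floor, at 4.06 in normal medium, 4.04 in osteogenic medium and 4.06 with DMSO. Its second probe set read 1.72, 2.02 and 1.95 in the same order, all below the floor. The 2 probe sets of Hoxb3 thus fell on opposite sides of the floor. Hoxc4 came closest from below, at 3.43, 3.499 and 3.499, followed by Hoxa3 at 3.41, 3.28 and 3.28. Hoxb4 gave 3.18 and Hoxb2 3.02 on each array. Hoxa2, the main Hox gene of the second pharyngeal arch and the most anterior one in the head skeleton, read 2.67 in every medium. Hoxb1 read 1.75, Hoxd3 between 1.69 and 1.75, Hoxd1 1.56 and Hoxa4 1.38. These genes lay well under the floor, with the other 3 probe sets of Hoxa3 between 1.56 and 2.54.

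Central genes, paralog groups 5 to 8, are used in the neck and thorax. Of the 9 measured, 3 were above the floor. Hoxa5, which patterns the neck and upper thorax, read 4.72 in normal medium, 4.76 in osteogenic medium and 4.86 once DMSO was added. Its second probe set, with some probes that can match other transcripts, read 4.70 on each array, so both probe sets of Hoxa5 lay above the floor. Hoxa7 was at 4.53, 4.41 and 4.41 and Hoxc6 at 3.87, 3.79 and 3.79. All 3 probe sets of Hoxc6 were above the floor, within 0.33 of it, with the others at 3.71 to 3.77. The 6 central genes below the floor were Hoxc5 at 3.18, Hoxc8 between 2.88 and 3.18, Hoxb7 between 2.85 and 2.94, Hoxb5 between 2.19 and 2.21, Hoxb6 at 1.95 and Hoxd8 between 1.75 and 2.00.

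Posterior genes, paralog groups 9 to 13, are used in the lumbar, sacral and tail regions and along the limbs. Of the 14 measured, 5 were above the floor. Hoxa10, which sets lumbar identity, had the highest values of the family, at 5.01, 5.03 and 5.01, from a probe set built to match several transcripts of the gene. Its other probe set read 1.56, 1.52 and 1.56, a gap of 3.47 between the 2 means and the widest of any Hox gene. Hoxa9 was at 4.27, 4.34 and 4.46, with its second probe set below the floor at 3.12, 3.18 and 3.18. Probe sets of the same gene therefore fell on opposite sides of the floor for both Hoxa9 and Hoxa10.

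Hoxc9, a gene of the lower thorax, read 4.86, 4.97 and 4.97 from its single probe set. Hoxc13, which is known from hair follicle and nail, read 3.66, 3.70 and 3.66, and Hoxd9 read 3.66 on all 3 arrays. Hoxd9 and Hoxc13 were the members just above the floor. Of paralog group 9, Hoxa9, Hoxc9 and Hoxd9 were above the floor and Hoxb9, at 2.48, was not. The genes of the distal limb were all below it: Hoxd13 lay between 2.34 and 2.54, Hoxa13 between 2.15 and 2.32, Hoxd11 at 1.95, Hoxd12 between 1.75 and 1.91, Hoxa11 at 1.75 and Hoxd10 between 1.31 and 1.38. Hoxb13 was at 2.21 and Hoxc10 between 1.75 and 1.77.

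By cluster, 4 of 9 Hoxa genes, 1 of 9 Hoxb genes, 3 of 7 Hoxc genes and 1 of 8 Hoxd genes were above the floor. The 4 Hoxa genes (Hoxa5, Hoxa7, Hoxa9 and Hoxa10) were next to each other among the measured genes of that cluster. In the Hoxc cluster the genes above the floor alternated with genes below it, since Hoxc8 and Hoxc10 lay between Hoxc6, Hoxc9 and Hoxc13. Of the 9 genes above the floor, 4 had a single probe set, 2 had all probe sets above the floor (Hoxa5 and Hoxc6) and 3 had another probe set below it (Hoxa9, Hoxa10 and Hoxb3). When each gene was taken by its dimmest probe set, 6 of 33 remained above the floor.

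Other probe sets also touch the clusters. All 8 probe sets that match antisense RNAs of the clusters (Hoxa11os, Hoxb5os and Hoxd3os1) or a pair of neighbouring Hox genes were below the floor in every medium, with values from 1.04 to 3.32. Those that match Hoxd4 together with Hoxd3 read 3.18 and 2.48 and the one for Hoxb8 with Hoxb7 read 1.75, on each array.

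Genes that osteoblasts are not known to use gave a measure of how bright an unused gene can look. There were 86 probe sets of olfactory, vomeronasal and taste receptors (77 genes), with a median of 1.75 and a 95th percentile of 3.41 over the arrays. The Hox probe sets had a median of 2.48 and a 95th percentile of 4.75. Of the receptor probe sets, 3 of 86 (3.49%) were above the floor on all 3 arrays, against 12 of 48 Hox probe sets (25%) and 49.1% of all non-control probe sets. The highest receptor was Vmn1r44, at 4.48 on each array, and Olfr140 read 3.66 on each array, the same value as Hoxd9. Hoxa5, Hoxa10 and Hoxc9 were above the highest receptor value on all 3 arrays, and the other 6 genes above the floor were not.

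**Figure D2:**
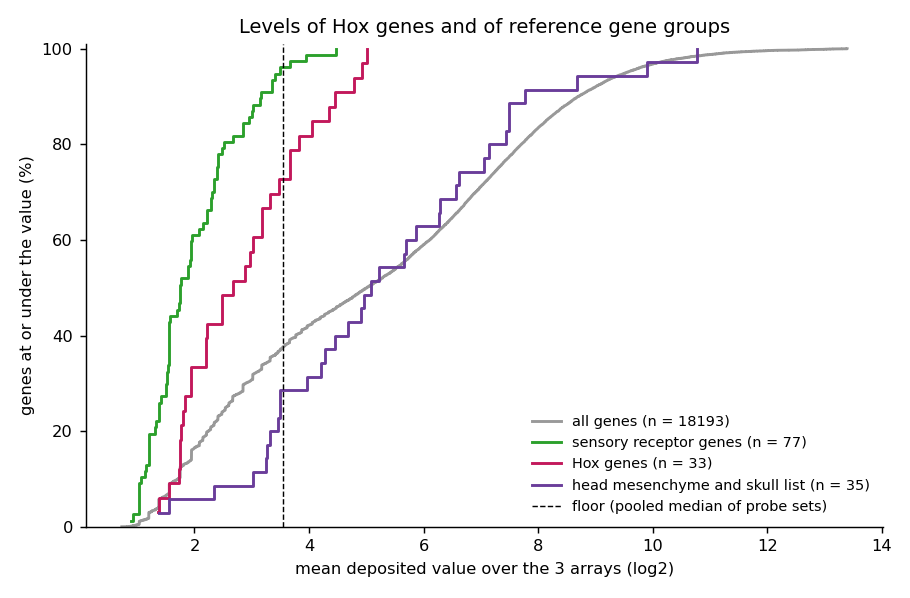
Cumulative share of genes (vertical axis, percent) at or under a mean log2 value over the 3 arrays (horizontal axis), for all genes, sensory receptor genes, Hox genes and the list of head mesenchyme and skull factors. The Hox curve rises to the right of the receptor curve and to the left of the curve of all genes, and 24 of 33 Hox genes lie left of the floor of 3.54.

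Many Hox values were equal to those of numerous other probe sets to the last deposited digit. All 48 Hox probe sets had, on at least 1 array, a value that 20 or more probe sets of that array shared, against 80.8% of all single-symbol probe sets. Sharing depends on the level: among single-symbol probe sets with means in the range of the Hox probe sets above the floor, 5030 of 5031 had such a value. The 3.66 of Hoxd9 was held by 464 probe sets in normal medium, 494 in osteogenic medium and 522 with DMSO. The 5.01 of Hoxa10 in normal medium was held by 84. Of the Hox probe sets, 22 (45.8%) were exactly equal on all 3 arrays, as were 34.1% of all single-symbol probe sets.

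**Figure D3:**
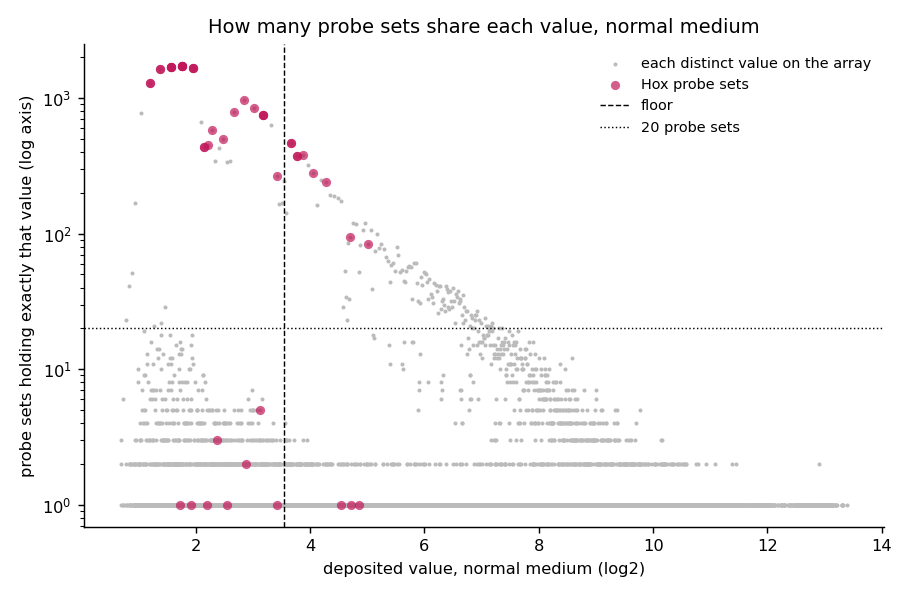
Number of probe sets on the normal medium array that hold exactly the same value (vertical axis, logarithmic) against that log2 value (horizontal axis). Grey points are the distinct values of the array, pink points the Hox probe sets, and the dashed line is the floor. Of the 48 Hox probe sets, 37 lie at or above the dotted line of 20 probe sets on this array.

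The first comparison asked whether osteogenic medium changed the Hox pattern. No Hox gene differed 2-fold: of the 9 genes above the floor, 0 were higher and 0 were lower, against 0.473% higher and 0.184% lower among the 11417 genes above the floor on at least 1 of the 2 arrays. Values under the floor were raised to it before calls, so a gene within 1 of the floor could not be called 2-fold lower. Of the 9, only Hoxa5, Hoxa10 and Hoxc9 lay further above it. The raising altered none of the 9 differences, since all their values were above the floor. The 9 differences, osteogenic minus normal medium, ran from -0.12 for Hoxa7 to 0.11 for Hoxc9 on the log2 scale, with a median of 0.02. Over all genes above the floor on the 3 arrays, the central 90% of differences ran from -0.35 to 0.35, with a median of 0.00. Of the 9, 5 were above 0, 3 below 0 and Hoxd9 exactly equal, as were 25.2% of all genes above the floor on the 3 arrays.

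The second comparison asked the same of DMSO within osteogenic medium. Again 0 of the 9 genes were 2-fold higher and 0 were 2-fold lower, against 0.0525% and 0.552% of 11423 genes. Lower calls were possible only for Hoxa5, Hoxa10 and Hoxc9, in this comparison and the next. The differences, with minus without DMSO, ran from -0.04 for Hoxc13 to 0.12 for Hoxa9, with 4 of 9 exactly equal and a median of 0.00. Of all genes above the floor on the 3 arrays, 29.5% were exactly equal in this comparison. Osteogenic medium with DMSO against normal medium, which shares its arrays with the other comparisons, likewise gave 0 of 9 in each direction, against 0.604% higher and 1.34% lower. There Hoxa9 was higher by 0.19, a fold of 1.14, and Hoxa5 by 0.14. At 1.5-fold, 0 of 9 Hox genes differed in any comparison, against 1.75% of genes higher and 1.61% lower in osteogenic medium, 0.35% and 2.12% with DMSO added, and 2.59% and 4.19% with DMSO against normal medium. Hoxb3, Hoxc6, Hoxc13 and Hoxd9 lay too near the floor to be called 1.5-fold lower.

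With 1 array per medium, the nearest measure of error is how far 2 probe sets of a gene disagree on its change. Over 5183 genes with more than 1 probe set above the floor, the SD of that disagreement was 0.19 for osteogenic against normal medium, 0.15 for DMSO within osteogenic medium and 0.23 for DMSO against normal medium. Each Hox difference above the floor, as deposited, was smaller than the SD of its comparison. Among all 48 Hox probe sets, the widest spread over the media was 0.30, for Hoxc8, which is below the floor. The SD covers probe noise and transcript forms and leaves out the spread between cultures, so a small effect on a Hox gene was not detectable here.

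Retinoic acid is the classic inducer of anterior Hox genes, and its genes are set beside them. Of the 10 anterior Hox genes measured (paralog groups 1 to 4), only Hoxb3 was above the floor, by a mean of 0.51. None of them could therefore be called 2-fold lower in any comparison. Of 16 measured genes of its synthesis, binding, receptors and breakdown, 10 (62.5%) were above the floor on all arrays, beside 61.6% of all genes. With DMSO, 2 of 12 comparable genes fell 2-fold and 0 rose 2-fold, beside 0.552% lower and 0.0525% higher among 11423 genes. Aldh1a3, which makes retinoic acid, went from 9.01 to 6.63, and Crabp1, which binds it in the cell, from 7.40 to 4.65. Crabp2, a carrier to the receptors, went from 8.94 to 8.25, and Aldh1a1, another synthetic enzyme, from 4.19 to 3.32, below the floor. By their brightest probe sets, the receptors Rara, Rarg, Rxra and Rxrb differed by at most 0.04 with DMSO. The other probe set of Rarg, also above the floor, differed by 0.11. Rarb, a receptor gene that retinoic acid itself is known to induce, read 2.15 on all 3 arrays. Cyp26b1, which breaks retinoic acid down, read 6.75, 7.01 and 6.73, and Cyp26a1, another such enzyme, 3.29, 3.97 and 3.64.

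**Figure D4:**
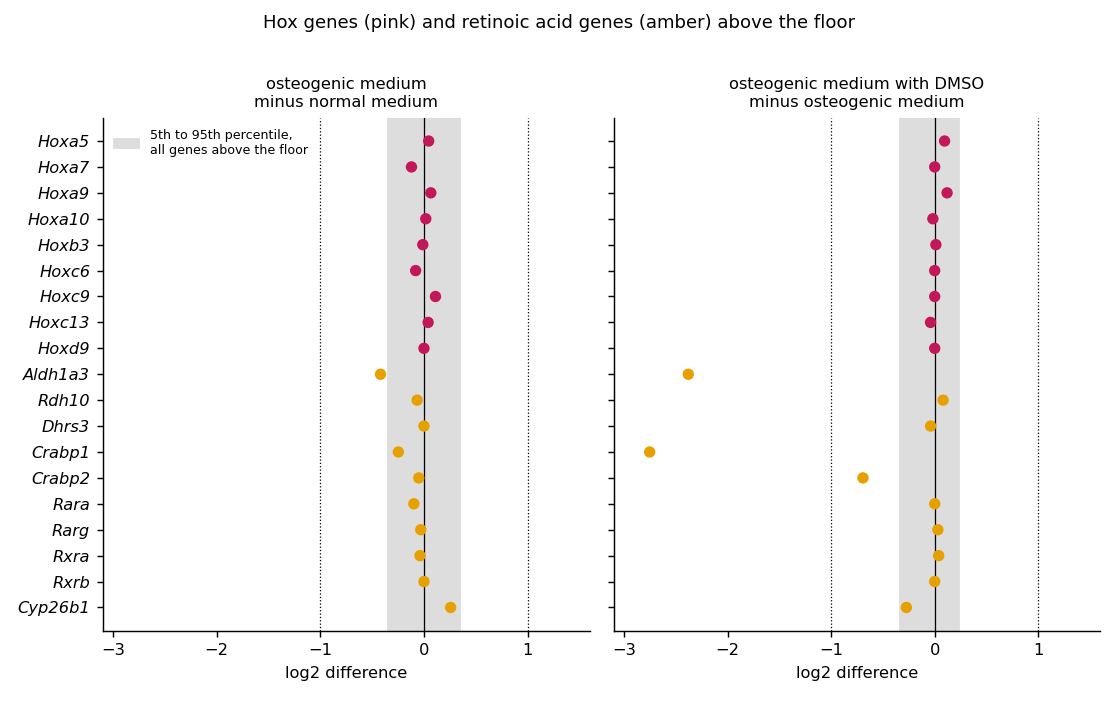
Log2 differences (horizontal axis) of the 9 Hox genes above the floor (pink) and of the 10 retinoic acid genes above the floor on all arrays (amber), for osteogenic minus normal medium and for osteogenic medium with minus without DMSO. Dotted lines mark a 2-fold difference and the grey band the central 90% of all genes above the floor. All 9 Hox points lie inside the band in both panels, while Aldh1a3 (-2.38) and Crabp1 (-2.75) lie beyond the 2-fold line with DMSO. Of these Hox genes only Hoxb3 belongs to the anterior paralog groups 1 to 4, and it lies too near the floor to be called 2-fold lower.

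Partners and regulators of Hox proteins mostly read above the floor. Of 8 measured TALE cofactors, which bind DNA together with Hox proteins, 7 (87.5%) were above the floor, beside 61.6% of all genes. Pbx3 read 8.43, 8.16 and 8.22, Pbx2 7.80, 7.81 and 7.58, Meis2 7.68, 7.55 and 7.50 and Pknox1 6.50, 6.49 and 6.68. Pbx4 was below the floor at 2.34. None differed 2-fold. The widest differences were those of Pknox2, at 6.60, 5.90 and 5.83, whose other probe set differed by -0.03 between osteogenic and normal medium, and of Meis1, at 5.21, 4.96 and 5.38.

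All 26 measured Polycomb genes, which keep Hox clusters silent outside their domain, were above the floor on all 3 arrays, beside 61.6% of all genes. So were all 13 measured genes of the MLL complexes and histone H3K27 demethylases, which keep the clusters active. The median differences of both lists lay between -0.01 and 0.10 in the first 2 comparisons, and none of either list differed 2-fold. Rbbp7 read 11.09 on each array, Rbbp4 10.33, 10.43 and 10.44, and Bmi1, a core subunit of the first Polycomb complex, 9.48, 9.48 and 9.49. Ezh2, the methyltransferase of the second complex, read 7.64, 7.94 and 8.16, and Phc2 7.80, 8.03 and 8.30. Pcgf5 read 7.88, 7.53 and 7.36, with its other probe sets between -0.28 and 0.00 for osteogenic minus normal medium. Kmt2a, the MLL methyltransferase that maintains Hox expression, read 5.93, 5.82 and 5.71. Dpy30, a shared subunit of these complexes, read 9.33, 9.43 and 9.63, and its partners Ash2l and Wdr5 8.13, 8.04 and 8.12 and 7.31, 7.46 and 7.63. Hcfc1 read 8.10, 8.06 and 8.19, and the demethylase Kdm6b 7.63, 7.48 and 7.46.

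The upstream regulators of the trunk were low. Of 7 measured caudal and posterior genes, 2 (28.6%) were above the floor, beside 61.6% of all genes. These were Evx2 at 4.06 on each array and Gdf11, a ligand that switches on posterior Hox genes, at 3.87, 3.97 and 3.97. The caudal factors Cdx1, Cdx2 and Cdx4, which activate central Hox genes, read at most 2.51, 2.54 and 1.20. Of the 12 genes of limb and body wall position, 5 (41.7%) were above the floor on all arrays, beside 61.6% of all genes. Shox2 read 7.80, 7.42 and 7.22, Tbx15 7.31, 7.17 and 7.17 and Tbx18 6.82, 7.32 and 7.24, each with its second probe set also above the floor. Tbx15 and Shox2 are also known from the embryonic head. En1 and Hand1 lay nearer the floor, at 4.41 to 4.48 and 3.68 to 3.77. The hindlimb factors Pitx1 and Tbx4 read 3.32 and 2.67 on each array, below the floor, and Tbx5, the forelimb factor, 3.54, 3.54 and 3.63, at the floor.

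Factors of head mesenchyme and skull bone stood higher than the Hox genes, near the level of all genes. Their median was 5.08, beside 2.67 for Hox genes and 5.01 for all genes. Of 35 measured, 25 (71.4%) were above the floor on all arrays, beside 27.3% of Hox genes and 61.6% of all genes. Prrx1, a factor of craniofacial and limb mesenchyme, read 10.89, 10.76 and 10.68 and its relative Prrx2 9.87, 9.92 and 9.92. Six2, of head and kidney mesenchyme, read 8.84, 8.62 and 8.55, and Twist1, required for the cranial sutures, 7.74, 7.74 and 7.82. Alx1, a factor of the frontonasal skeleton, read 7.82, 7.26 and 7.23, with its second probe set also above the floor. Foxc1, needed for the skull vault, read 7.23, 7.31 and 6.91, and the neural crest factors Tfap2b and Pax3 6.68, 6.49 and 6.54 and 6.22, 6.31 and 6.29. Dlx5, an osteoblast and jaw factor, read 6.75, 7.13 and 7.31. Dlx3 alone differed 2-fold, rising from 4.01 to 5.41 with osteogenic medium and reading 5.83 with DMSO, while its other probe set differed by 0.10.

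The forebrain and midbrain factors were low as well, with a median of 1.95 beside 2.67 for Hox genes. Of 9 measured, 3 (33.3%) were above the floor, beside 27.3% of Hox genes and 61.6% of all genes. These were Emx2 at 5.72, 5.80 and 5.60, Emx1 at 4.48, 4.64 and 4.70 and Otx1 at 4.48 on each array. Otx2, the factor of the anterior head ahead of the Hox domain, read 1.37, 1.20 and 1.20. The head mesenchyme and skull list also had 10 genes below the floor on every array. Zic1 read 1.38, Foxd1 1.56, Tfap2c 2.34, Barx2 3.02, Lhx6 3.32, Twist2 3.46 and Lmx1b 3.499 in every medium. Lhx8 lay between 3.02 and 3.49, Dlx4 between 3.17 and 3.32 and Barx1 between 3.46 and 3.499.

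**Figure D5:**
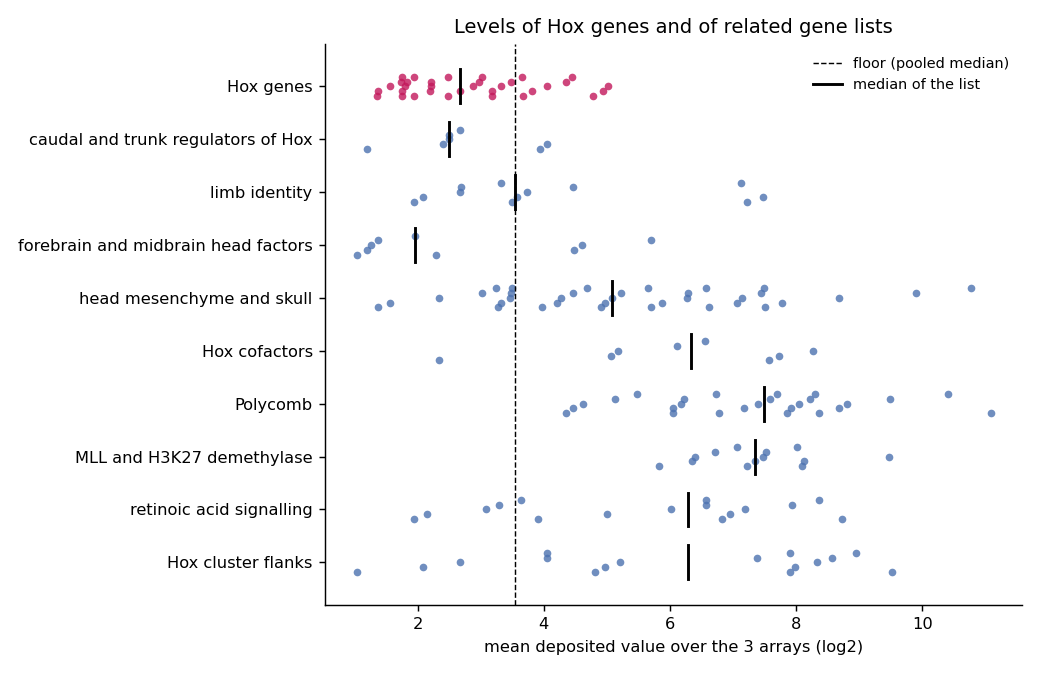
Mean log2 value over the 3 arrays (horizontal axis) of each measured gene, for the Hox genes (pink) and the related lists (blue). Black bars are medians and the dashed line is the floor of 3.54. The Hox median of 2.67 lies near that of the caudal and trunk regulators (2.50) and right of the forebrain and midbrain head factors (1.95). It lies left of the Hox cofactors (6.33), Polycomb genes (7.49) and the head mesenchyme and skull list (5.08).

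Genes that flank the clusters were read as well. Of 16 measured flanking genes, 13 (81.25%) were above the floor, beside 61.6% of all genes. Next to Hoxd1, Mtx2 read 8.27, 8.39 and 8.34. Beyond Evx2, on the Hoxd13 side, Lnpk read 7.37 in every medium. Hibadh, beyond Evx1 on the Hoxa13 side, read 9.68, 9.45 and 9.44. The Hoxc cluster lies between Calcoco1, at 5.09, 4.91 and 4.91, and Smug1, at 4.92, 4.61 and 4.92. At the Hoxb cluster Skap1, a gene of T cells, was below the floor at 2.08, and Ttll6 read 4.06 on each array.

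The identity of the cells was checked with marker lists. Of 8 measured osteoblast markers, 7 were above the floor on all arrays, and Phex, just under the floor in normal medium at 3.54, was above it in the others. In osteogenic medium 5 of the 8 rose 2-fold: Alpl went from 6.61 to 8.31, Ibsp from 7.998 to 10.17, Dmp1 from 6.65 to 7.83, Ifitm5 from 4.24 to 6.28 and Phex to 4.70, while the other probe set of Phex, not above the floor on all arrays, differed by -0.13. The other probe set of Ibsp differed by 2.26 and those of Dmp1 by 0.95 to 1.18. With DMSO, Ifitm5 rose to 7.37 and Dmp1 fell to 5.01. Over all genes, 0.473% of 11417 were 2-fold higher and 0.184% lower in osteogenic against normal medium. With DMSO in osteogenic medium, 0.0525% of 11423 genes were higher and 0.552% lower. On the same arrays 0 of 9 Hox genes differed 2-fold in either comparison. The adipocyte list had 0 of 4 genes above the floor and the endothelial list 0 of 6 on all arrays (Kdr was above it in normal medium alone, at 3.66), with Ptprc, the pan-leukocyte marker, at 1.38. Of 8 macrophage and osteoclast genes, 2 were above the floor, Ctsk at 9.35, 9.46 and 9.29 and Csf1r at 4.66, 4.41 and 4.41. The chondrocyte, skeletal muscle and neural lists each had 3 of 6 above it. In the chondrocyte list Col2a1 read 7.16, 8.01 and 8.08 and in the neural list Tubb3, a tubulin, rose from 4.02 to 5.28 and read 5.91 with DMSO. The summed log2 values of the neural list, genes below the floor included, read 17.8, 19.0 and 19.8 and those of the chondrocyte list 26.5, 27.6 and 27.2. In osteogenic against normal medium, 1 neural gene (Tubb3) and 0 chondrocyte genes rose 2-fold, so the sums do not show a rise of either list as a whole. The part of such cells in the Hox values was not tested.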

How the data were processed

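Per the labels, 500 ng of total RNA with an RNA integrity number over 9.5 was made into biotin-labelled cRNA with a 3' IVT kit and hybridised to 3 arrays, 1 per medium. The authors deposited log2 values of 45101 probe sets; that scale was read from their range of 0.65 to 13.4, and how probes were summarised and arrays normalized is not given in the sources used here. Array medians were nearly equal (3.54, 3.57 and 3.54), so a change in total RNA per cell would not be seen.

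Probe sets were named from the platform annotation of 2016. Of 45037 non-control probe sets, 34945 carried 1 symbol and 932 several, while 9160 stayed unnamed. Each gene's value is that of its brightest probe set by mean. Values under the floor, the 50th percentile of the pooled probe sets, were raised to it before calls. A call was a difference of at least 1 (2-fold), with no p-value. Promoter sequences came from RefSeq. The members, lists and rules were chosen with earlier results of these data known. All Hox genes were reported, with those nearest the floor on each side, and from other lists up to 4 genes of the highest level, up to 4 of the largest difference and those differing 2-fold. Pbx4, Kmt2a, the Cdx genes, Otx2, Pax3, Tfap2b, Pitx1, Tbx4, Tbx5, Ptprc, Cyp26a1, Cyp26b1, Rara, Rarb, Rxra, most flanking genes, the printed promoters and the count of shared values were chosen after values were seen. So were the head mesenchyme and skull factors below the floor. The alternatives were other floors, quantile normalization, cyclic loess with limma 3.58.1 in R 4.3.3, other choices among probe sets and a 1.5-fold call. Scripts ran in Python 3.11.15 (pandas 2.3.3, numpy 2.4.6; figures with matplotlib 3.10.9), and the calls were tested on simulated data.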

Additional observations from a re-analysis of the deposited data

How the results depend on the processing

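The floor decides how many Hox genes count as above it. Over all 3 arrays the number was 9 of 33 with the floor at the pooled median, 15 with the floor at the 40th percentile (2.85), 3 at the 60th percentile (4.48; Hoxa5, Hoxa10 and Hoxc9) and 10 at the 95th percentile of the sensory receptors. It was 9 with quantile normalization and with cyclic loess, 7 with the mean of all probe sets of a gene, 8 with probe sets of plain suffix alone and 6 with the dimmest probe set. With these settings the share of all genes above the floor ran from 41.5% to 69.3%, always over that of the Hox genes. The limb list had 5 genes above the floor, 8 at the 40th percentile and 3 at the 60th. At the 60th percentile the caudal list had 0 and the forebrain list 1. With plain suffixes alone, 4 Hox cofactors and 6 retinoic acid genes were above it, and with the dimmest probe set 14 Polycomb genes and 8 flanking genes were. The cause was not tested beyond the construction of each setting, which moves the floor or drops probe sets. No Hox gene differed 2-fold under any floor, normalization or probe set choice, nor 1.5-fold with the deposited values, and 182 of 182 recomputed differences of named Hox genes moved from the reported value by less than the SD between probe sets. In each setting, genes close to the floor could not be called lower. With quantile normalization Hoxa9 differed by 0.17 with DMSO in osteogenic medium, above that comparison's SD of 0.15. List medians of the differences also moved by less than that SD; for retinoic acid genes with DMSO the median was -0.16 as deposited and ran from -0.30 (plain suffixes) to -0.02 (floor at the 40th or 60th percentile). With sharing counted from 5 or from 100 probe sets, chosen after seeing the data, 48 and 47 of the 48 Hox probe sets had a shared value. No paired analysis was possible because each medium has 1 array, and no array could be left out for the same reason. Signal close to background limits every Hox value.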
